A study of Homo sapiens with 5 samples.

Results

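Gene-desert TEAD4 peaks are the TEAD4-bound regions of LX-2 cells that lie outside protein-coding genes and far from their start sites. A peak was taken as one when its summit was outside every protein-coding gene body of GENCODE release 44 on hg38, over 1 kb from every lncRNA transcription start site (TSS) and over 100 kb from the nearest coding TSS. The rule gave 3357 of the 21113 peaks of the list, or 15.9%. It used positions only, so neither the signal nor the sequence of a peak chose it. The cells were LX-2, an immortalized line derived from human hepatic stellate cells that has a myofibroblastic phenotype, and no other line was used. All cells had received DMSO, the vehicle. TEAD4 was immunoprecipitated with the antibody ab58310 from cells cross-linked with 1% formaldehyde in 3 replicates, with 2 input libraries, one of them shared by replicates 1 and 2. The peak list joins replicates 1 and 3, because replicate 2 was judged not concordant enough in the analysis of reproducibility and was left out. Thus each peak carries 1 value, no spread between replicates can be given, and the read depth behind it is unknown.

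TEAD1 to TEAD4 are DNA-binding proteins that bind the letters ACATTCC and recruit the coactivators YAP and TAZ, the effectors of the Hippo pathway. Much of this binding is known to occur at enhancers far from promoters, often beside AP-1, the dimers of FOS and JUN proteins. Gene deserts are long stretches without coding genes. Some hold enhancers that act over long distances on developmental genes and on growth genes at their borders.

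The sequences of 10 gene-desert peaks are given as examples at the level of bases. They were picked by motif, signal value or distance and do not stand for the whole part. Of all gene-desert peaks 54.2% held neither a TEAD nor an AP-1 motif. Each is 201 bases of the hg38 plus strand centred on the summit, and capitals mark the TEAD letters ACATTCC, the AP-1 letters TGACTCA or the RUNX letters TGTGGTT on either strand. The first 4 are the strongest peaks with a TEAD motif, the next 2 the strongest with an AP-1 motif but no TEAD motif, then come the strongest with neither and the peak farthest from a coding TSS. The last 2 are the strongest with a RUNX motif and neither of the others, added after the RUNX result was known. RUNX proteins are runt-domain transcription factors. Each line gives the coding gene with the nearest TSS.
PRICKLE1 side, TEAD and RUNX, chr12:42961434-42961634: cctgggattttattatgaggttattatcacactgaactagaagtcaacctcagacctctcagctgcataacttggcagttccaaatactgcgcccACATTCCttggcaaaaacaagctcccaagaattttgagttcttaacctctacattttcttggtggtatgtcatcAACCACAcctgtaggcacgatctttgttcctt
IGFBP3 side, TEAD, chr7:46145512-46145712: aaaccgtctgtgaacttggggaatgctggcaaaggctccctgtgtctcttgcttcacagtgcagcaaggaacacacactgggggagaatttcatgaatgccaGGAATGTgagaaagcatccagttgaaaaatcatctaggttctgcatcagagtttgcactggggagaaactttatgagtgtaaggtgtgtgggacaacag
CCND1 side, TEAD, chr11:69497345-69497545: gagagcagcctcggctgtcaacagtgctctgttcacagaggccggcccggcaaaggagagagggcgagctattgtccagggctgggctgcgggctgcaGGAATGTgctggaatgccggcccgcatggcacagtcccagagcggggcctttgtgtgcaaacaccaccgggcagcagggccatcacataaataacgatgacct
PCED1B side, TEAD, chr12:46964564-46964764: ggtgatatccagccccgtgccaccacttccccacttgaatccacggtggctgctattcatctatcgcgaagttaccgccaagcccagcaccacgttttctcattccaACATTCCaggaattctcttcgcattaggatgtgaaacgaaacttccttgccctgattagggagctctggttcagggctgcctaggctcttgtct
MYEOV side, AP-1, chr11:69420587-69420787: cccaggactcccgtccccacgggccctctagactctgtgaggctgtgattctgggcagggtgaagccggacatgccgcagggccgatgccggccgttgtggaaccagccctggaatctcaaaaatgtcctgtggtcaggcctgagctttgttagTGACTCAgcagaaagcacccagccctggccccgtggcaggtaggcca
FGGY side, AP-1, chr1:59143250-59143450: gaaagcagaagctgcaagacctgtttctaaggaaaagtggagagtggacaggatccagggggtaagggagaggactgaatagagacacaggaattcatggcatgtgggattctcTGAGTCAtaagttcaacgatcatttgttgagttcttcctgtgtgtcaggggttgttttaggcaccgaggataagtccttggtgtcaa
CDH2 side, neither, chr18:29165389-29165589: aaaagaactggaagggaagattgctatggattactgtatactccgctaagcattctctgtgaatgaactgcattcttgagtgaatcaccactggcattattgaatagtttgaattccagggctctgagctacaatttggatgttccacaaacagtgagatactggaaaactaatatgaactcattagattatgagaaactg
RPIA side, farthest, TEAD, chr2:91598471-91598671: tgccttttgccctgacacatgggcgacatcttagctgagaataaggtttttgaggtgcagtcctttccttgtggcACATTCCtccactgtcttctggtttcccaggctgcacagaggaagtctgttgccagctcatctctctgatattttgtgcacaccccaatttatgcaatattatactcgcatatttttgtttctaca
CRIM1 side, RUNX, chr2:35462779-35462979: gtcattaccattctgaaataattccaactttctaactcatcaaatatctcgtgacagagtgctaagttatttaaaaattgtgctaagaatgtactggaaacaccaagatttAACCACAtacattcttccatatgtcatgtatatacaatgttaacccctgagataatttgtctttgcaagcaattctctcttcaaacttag
PREP side, RUNX, chr6:105608963-105609163: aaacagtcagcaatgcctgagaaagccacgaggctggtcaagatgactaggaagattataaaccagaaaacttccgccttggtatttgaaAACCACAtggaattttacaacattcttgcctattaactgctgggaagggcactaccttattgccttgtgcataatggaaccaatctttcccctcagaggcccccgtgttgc
In the 4 strongest peaks with a TEAD motif the motif centre lay at -2, 5, 1 and 10 bp from the summit. The AP-1 matches in the next 2 sat 57 and 17 bp away. The strongest gene-desert peak of all, on the CDH2 side, held none of the 3 motifs in this window.

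The gene-desert peaks were spread over 780 intervals between coding genes. Their median distance to a coding TSS was 232 kb, with quartiles of 151 and 423 kb and a maximum of 2907 kb. A total of 673 lay beyond 500 kb and 131 beyond 1000 kb. The interval between the flanking coding genes exceeded 500 kb for 2452 of them (73.0%). The rule allows lncRNA gene bodies, and 1291 peaks (38.5%, 95% Wilson interval 36.8 to 40.1) lay inside one of 588 lncRNA genes. A pseudogene or another non-coding gene type held 44.

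Gene-desert sequence, meaning the bases that meet the rule, made up 898 Mb or 30.6% of the sequenced bases of hg38. It held 3.74 peaks per Mb, against 8.71 per Mb for all other peaks in the rest of the genome. The rest was the denser on each of the 24 chromosomes, by 1.60 to 4.04 times. Chromosome 20 had the densest deserts with 6.63 peaks per Mb, followed by chromosome 15 with 5.91, chromosome 12 with 5.56 and chromosome 6 with 5.28. Chromosome 19 had 2.16, chromosome X 1.80 and chromosome Y 0.369. Densities were not tested. The lengths left out only bases that hg38 does not give, so repeated sequence where reads do not map uniquely was kept. Neither mappability nor copy number was taken into account, here or in the densities per gene.

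Gene-desert peaks had signal values from 6.63 to 865.8, and all other peaks from 6.57 to 1074. The signal value is the peak caller's own value for each peak, and its exact meaning is not known here, since the caller is not named. It had a median of 69.5 in gene-desert peaks with quartiles of 47.1 and 117, and of 67.7 with quartiles of 45.9 and 113 in all other peaks. Above the median of the whole list lay 51.5% of gene-desert peaks (49.8 to 53.2) and 49.7% of all other peaks, an odds ratio of 1.07 (1.00 to 1.15, adjusted exact p = 0.161, two-sided Fisher's exact test with Benjamini-Hochberg adjustment over 36 comparisons). Merging overlapping peaks, a limit of 50 kb and the use of gene starts alone as TSSs each took this difference past the threshold, with odds ratios of 1.10, 1.08 and 1.10. Against intergenic peaks 1 to 100 kb from a coding TSS the odds ratio was 0.965 (0.885 to 1.05, adjusted exact p = 0.705), and against peaks inside coding genes but over 100 kb from every coding TSS it was 0.964 (0.811 to 1.15, adjusted exact p = 0.803). The highest score of reproducibility between the replicates, 1000, was reached by 77.2% of gene-desert peaks and 75.9% of all other peaks. A q-value above 0.05 was listed for 116 gene-desert peaks (3.46%) and for 3.14% of all other peaks. Peaks are members of 1 list and not replicates, so these p-values cover counting over peaks only, and neighbouring peaks are not independent.

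Just at the limit, the 100 gene-desert peaks nearest to a coding TSS (100.2 to 104.5 kb) had a median signal value of 71.5, with a TEAD motif in 29, an AP-1 motif in 35 and a RUNX motif in 14. The 100 intergenic peaks just inside 100 kb (95.6 to 99.9 kb) had a median of 79.9, with the motifs in 22, 35 and 7.

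A TEAD motif within 100 bp of the summit was found in 774 gene-desert peaks, or 23.1% (21.7 to 24.5), beside 23.0% of the whole list. All other peaks had 22.9%, an odds ratio of 1.01 (0.922 to 1.10, adjusted exact p = 0.943). The comparisons with the intergenic peaks (odds ratio 0.969, 0.874 to 1.07, adjusted exact p = 0.782) and with the in-gene peaks beyond 100 kb (0.990, 0.807 to 1.22, adjusted exact p = 0.943) did not pass either. With the shorter letters CATTCC the gene-desert share was below that of the intergenic peaks, with an odds ratio of 0.887 and an adjusted exact p of 0.0237. The flanks of the gene-desert peaks, windows of the same length 2000 bp to either side, held the motif in 3.04% of 6714, an odds ratio of 9.56 for peak against flank (8.14 to 11.2, adjusted exact p = 9.22e-211). Here and below, peak windows were set against all flank windows without pairing each peak with its own flanks. The same letters in reverse order, CCTTACA, were present in 2.11% of gene-desert peaks and 1.98% of all other peaks. The motif centre lay a median of 17 bp from the summit in gene-desert peaks and 16 bp in all other peaks. At least 2 TEAD motifs were found in 50 gene-desert peaks, or 1.49%, and in 1.87% of all other peaks. In the 49 gene-desert peaks with exactly 2, their starts were a median of 39 bp apart.

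The AP-1 motif was the more frequent of the pair, in 928 gene-desert peaks or 27.6% (26.2 to 29.2), beside 25.4% of the whole list and 3.38% of the flanks (odds ratio 10.9, 9.37 to 12.7, adjusted exact p = 3.24e-268). It was more frequent than in all other peaks, at 24.98% (odds ratio 1.15, 1.06 to 1.25, adjusted exact p = 0.00459). This difference did not pass with the GC content of the window as a covariate (odds ratio 1.07, adjusted p = 0.444, logistic model, n = 21113 peaks). It also did not pass among peaks with the highest reproducibility score (1.11, adjusted exact p = 0.0885), above the median signal value (1.10, adjusted exact p = 0.252) or with a limit of 200 kb (1.07, adjusted exact p = 0.416). Against intergenic and in-gene peaks the odds ratios were 1.02 (0.927 to 1.13, adjusted exact p = 0.803) and 0.998 (0.823 to 1.21, adjusted exact p = 1.000). Median GC content was 41.3% in gene-desert peaks, 45.3% in all other peaks, 44.8% in intergenic peaks and 41.8% in the in-gene peaks beyond 100 kb.

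The RUNX motif was more frequent in gene-desert peaks than in the rest of the list. It was present in 407 of them, 12.1% (11.1 to 13.3), beside 9.53% of the whole list, and in 9.04% of all other peaks (odds ratio 1.39, 1.24 to 1.56, adjusted exact p = 3.55e-07). Against intergenic peaks the odds ratio was 1.34 (1.16 to 1.54, adjusted exact p = 0.000234). In-gene peaks beyond 100 kb had 10.5% (8.34 to 13.2). Against them the odds ratio was 1.17 (0.886 to 1.55, adjusted exact p = 0.551), and this comparison did not pass the threshold. The comparison with all other peaks passed under all 12 alternatives tried, among them GC content as a covariate, with odds ratios from 1.22 to 1.45. No alternatives, GC content among them, are given for the RUNX comparisons with intergenic and in-gene peaks. Flanks held the motif in 3.77% around gene-desert peaks and 3.66% around all other peaks. The enrichment of peak over flank was 3.52 (2.99 to 4.15) in gene-desert peaks and 2.62 (2.42 to 2.82) in all other peaks, and the ratio of these odds ratios was 1.35 (1.13 to 1.61, unadjusted p = 0.00113, logistic model with an interaction term over the windows of n = 21113 peaks). For the TEAD motif that ratio was 0.917 (0.769 to 1.09, unadjusted p = 0.335) and for AP-1 1.17 (0.989 to 1.38, unadjusted p = 0.0676, n = 21113 peaks). These models took every peak window and flank window as independent, with no term for the peak they came from.

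The GC box and the C/EBP motif differed in opposite directions. The GC box GGGCGG, a promoter element bound by SP factors, was in 80 gene-desert peaks or 2.38%, beside 8.56% of the whole list, against 9.73% of all other peaks (odds ratio 0.226, 0.180 to 0.284, adjusted exact p = 1.09e-55). The difference did not pass with GC content as a covariate (odds ratio 0.788, adjusted p = 0.281, logistic model, n = 21113 peaks). The box is made of G and C only and adds to the GC content of the same window, so this model cannot tell them apart. The rule kept promoter peaks out of the gene-desert peaks and left them in all other peaks, so this contrast was partly set in advance. The GC box share was 5.76% in intergenic peaks (odds ratio 0.400, adjusted exact p = 1.16e-13) and 1.65% in the in-gene peaks beyond 100 kb (1.46, 0.751 to 2.83, adjusted exact p = 0.551). The C/EBP letters TTGCNNAA were in 14.8% against 12.3% (odds ratio 1.25, adjusted exact p = 0.000234), and that difference also did not pass above the median signal value (1.16, adjusted exact p = 0.150). Against intergenic peaks the C/EBP odds ratio was 1.18 (adjusted exact p = 0.0388), and against in-gene peaks beyond 100 kb, with 14.5%, it was 1.03 (0.804 to 1.31, adjusted exact p = 0.943). With GC content the C/EBP odds ratio to all other peaks was 1.05 (adjusted p = 0.815, logistic model, n = 21113 peaks). The E-box CAGATG (17.1%), the forkhead letters TGTTTAC (3.66%) and the CTCF core CCANNAGGG (3.10%) did not differ from all other peaks past the threshold, with odds ratios of 1.03, 1.05 and 0.784 and adjusted exact p of 0.768, 0.802 and 0.0644. Against intergenic peaks the CTCF core was less frequent (odds ratio 0.742, 0.584 to 0.941, adjusted exact p = 0.0419), and against in-gene peaks beyond 100 kb the odds ratio was 1.18 (0.693 to 2.01, adjusted exact p = 0.782). The comparison with all other peaks passed in 3 of the alternatives, with odds ratios of 0.732 among peaks with the highest reproducibility score, 0.772 with gene starts as TSSs and 0.758 within 250 bp.

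Within the gene-desert peaks the motifs divided as follows. A TEAD motif without AP-1 was present in 608 (18.1%), AP-1 without TEAD in 762 (22.7%), both in 166 (4.94%) and neither in 1821 (54.2%). The AP-1 motif was less frequent in peaks with a TEAD motif than in those without, 21.4% against 29.5% (odds ratio 0.653, 0.539 to 0.790, unadjusted p = 8.60e-06, Fisher's exact test), and in all other peaks the odds ratio was 0.652. RUNX motifs were likewise less frequent in gene-desert peaks with AP-1 than without, 9.05% against 13.3% (odds ratio 0.649, 0.504 to 0.836, unadjusted exact p = 0.000601). Median signal values were 83.2 with TEAD alone, 69.1 with AP-1 alone, 91.3 with both and 64.9 with neither.

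TEAD motifs were more frequent in the stronger gene-desert peaks. Their share was 28.2% above the median signal value of gene-desert peaks and 17.9% at or below it (odds ratio 1.80, 1.53 to 2.12, adjusted exact p = 9.47e-12). In 5 equal groups from the weakest to the strongest peaks the share was 15.5%, 19.1%, 22.4%, 25.3% and 33.1%, higher in each group than in the one before. AP-1 shares in the same groups were 22.6%, 30.4%, 29.8%, 30.3% and 25.2%, lowest in the weakest group and next lowest in the strongest. RUNX shares were 8.18% in the weakest and 15.8% in the strongest group. The split at the list's median gave an odds ratio for TEAD of 1.80 in gene-desert peaks and 1.75 in all other peaks, and the ratio between them was 1.03 (0.858 to 1.23, unadjusted p = 0.771, logistic model, n = 21113 peaks).

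Along the distance axis the TEAD share was 24.7% at 100 to 200 kb (n = 1415), 22.8% at 200 to 500 kb (n = 1269), 21.4% at 500 to 1000 kb (n = 542) and 15.3% beyond 1000 kb (n = 131, 10.1 to 22.4). Peaks beyond and within 300 kb of a coding TSS had 21.5% and 24.1%, which did not differ past the threshold (odds ratio 0.864, 0.731 to 1.02, adjusted exact p = 0.204). RUNX shares over the same classes were 11.4%, 12.8%, 11.3% and 17.6%. Median GC content fell from 43.3% in the nearest class to 36.8% in the farthest. Median signal values stayed between 68.2 and 71.1.

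The 10 strongest gene-desert peaks had signal values from 865.8 down to 541.8. A TEAD motif was present in 5 of them, an AP-1 motif in 1 and neither in 4. Of the 100 strongest, 27 held TEAD, 22 AP-1, 12 RUNX and 56 neither TEAD nor AP-1. Their TEAD share was thus below the 33.1% of the strongest of the 5 groups above. The strongest, 865.8 at chr18:29165206-29165772, lay 988 kb from CDH2, the gene of N-cadherin, and 1824 kb from DSC3, a desmosomal cadherin. The next, 777.5 at chr13:87999263-87999887, was 327 kb from the TSS of SLITRK5, which encodes a neuronal membrane protein, with GPC5, a glypican, 3399 kb away on the other side. A peak of 732.2 at chr12:42961271-42961820 stood between PRICKLE1, of the planar cell polarity pathway, and ADAMTS20, a secreted metalloprotease, 371 and 392 kb away.

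A pair of these 10 peaks lay in the same 299 kb interval between MYEOV and CCND1, the gene of cyclin D1. The first, 713.5 at chr11:69420465-69420911, held an AP-1 motif and was 220 kb from CCND1. The second, 575.5 at chr11:69497160-69497682, held a TEAD motif and was 144 kb from it. Their windows had a GC content of 62.7% and 62.2%, against a median of 41.3% in gene-desert peaks. A peak of 690.1 inside the lncRNA gene LINC02941 at chr6:140061919-140062434 was 688 kb from CITED2, a transcriptional coregulator that binds CBP and p300, with NMBR, a receptor for neuromedin B, 1996 kb away on the other side.

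The peak of 655.2 at chr7:46145331-46145857 was 224 kb from IGFBP3, a binding protein of insulin-like growth factors and a known YAP target, and 1130 kb from TNS3, a tensin of focal adhesions. One of 625.8 at chr2:226477940-226478475 was 317 kb from the TSS of IRS1, the insulin receptor substrate, and had 7 other TEAD4 peaks within 50 kb. The last 2 of the 10 were 571.2 at chr12:46964496-46964903, between SLC38A4, an amino acid transporter, and AMIGO2, an adhesion protein, with the nearest TSS in PCED1B, and 541.8 at chr16:47888094-47888516, between PHKB, a subunit of phosphorylase kinase, and ABCC12, an ABC transporter. All 10 had a summit whose central 31 bases occur once in hg38.

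The 5 farthest gene-desert peaks had signal values from 82.7 to 265.5, and 3 of them lay in sequence that hg38 holds more than once. The farthest, 92.6 at chr2:91598479-91598694, was 2907 kb from RPIA, an enzyme of the pentose phosphate pathway, with the aquaporin gene AQP7B on the other side, and its central 31 bases occur 5 times in hg38. The next, 108.1 at chr20:28562683-28562796, lay 2695 kb from DEFB115, a beta-defensin, with ZNF337 on the other side, and its 31 bases occur 6 times. The other 3 (82.7, 131.8 and 265.5) stood in the 4801 kb interval between PCDH7, a protocadherin, and ARAP2, a GTPase-activating protein of ARF proteins, on chromosome 4. The strongest of these had 3 copies of its 31 bases. Over all gene-desert peaks 98.4% had a unique summit, against 97.7% of all other peaks, and 55 did not.

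The gene with the nearest coding TSS was taken as a label of position, since the list holds no contact or expression data. Counts and densities per gene and per gene list are of unmerged peaks, so a region with several summits counted more than once. The order of genes was not checked with merged peaks. The 3357 gene-desert peaks were nearest to 1016 coding genes, 5.07% of the 20033 in the annotation. Of these genes 392 had 1 peak, 224 had at least 5, and 58 had at least 10, which together held 827 peaks. Of the 545 genes with at least 0.5 Mb of gene-desert sequence nearest to them, 257 had no gene-desert peak.

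CITED2 had the most, 32 gene-desert peaks at 165 to 1287 kb, or 26.4 per Mb of its desert against 3.74 over all genes, with a median signal value of 89.5. It was the nearest coding gene of 5 TEAD4 peaks that were not gene-desert peaks. TLE4, a Groucho corepressor, had 27 (19.6 per Mb), and FLRT2, a membrane protein with fibronectin and leucine-rich repeats, had 25 in a larger desert (8.54 per Mb). MARCKS, an actin-binding substrate of protein kinase C, had 24 (37.7 per Mb), IRS1 had 23 (45.4 per Mb), and PAPPA, a metalloprotease that cleaves IGF-binding proteins, had 21 (51.3 per Mb). These 3 had the highest densities of the 10 genes with most gene-desert peaks.

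MYC had 20 gene-desert peaks at 113 to 945 kb with a median signal value of 87.9, and a TEAD motif was present in 6 and an AP-1 motif in 8. ADAMTS5, a protease of the matrix proteoglycan aggrecan, had 19 at 258 to 725 kb. CDH11, the cadherin of mesenchymal cells, had 19 at 109 to 880 kb. OTOL1, which encodes an inner ear collagen-like protein, also had 19, the nearest at 393 kb, and no TEAD4 peak outside the desert had its TSS as the nearest. Motif content varied among the 10. PAPPA had a TEAD motif in 8 of 21, IRS1 in 1 of 23 and OTOL1 in 1 of 19.

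The gene lists are described by counts only. Over all coding genes 1016 of 20033 (5.07%) were nearest to a gene-desert peak, or 1016 of the 3045 that had any gene-desert sequence, at 3.74 peaks per Mb. Of 32 YAP-TEAD target genes 12 (37.5%, beside 5.07% of all coding genes) were nearest to at least 1 gene-desert peak, with 50 peaks at 12.6 per Mb of their deserts. THBS1, the gene of the matrix protein thrombospondin 1, had 16, IGFBP3 had 10, CRIM1, a membrane protein that binds BMPs, had 5, the ligand gene TGFB2 had 4 and F3, the tissue factor gene, had 3. A TEAD motif was in 34.0% of these 50 peaks and an AP-1 motif in 10 of the 50, beside 23.1% and 27.6% of all gene-desert peaks. Over the other lists the TEAD share ran from 19.4% to 37.5%. Gene-desert sequence was nearest to 17 of these 32 genes.

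Of 73 mesenchymal and developmental transcription factors 32 (43.8%, beside 5.07% of all coding genes) were nearest to a total of 164 gene-desert peaks, at 7.01 per Mb, and 59 of the 73 had gene-desert sequence. After MYC came SOX9, a regulator of cartilage and matrix genes, with 14, TFAP2A with 13, ZEB2, a regulator of epithelial to mesenchymal transition, with 13 and KLF4 with 12. Of 34 ligands and antagonists of the TGF-beta, BMP and activin families 11 (32.4%, with 17 that had gene-desert sequence) had 28 peaks at 9.03 per Mb, with TGFB2 first, and BMP4, BMPER, FST (follistatin) and INHBA (an activin subunit) with 3 each. The strongest of the BMP4 peaks had a signal value of 523.5. Of 38 FGF, WNT, PDGF and EGF family genes 12 (31.6%, with 23 that had gene-desert sequence) had 36 at 8.75 per Mb, led by the growth factor PDGFC with 8, FGF12 and the WNT antagonist SFRP1 with 5 each, and the WNT antagonist DKK1 and the growth factor FGF1 with 4 each.

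Of 29 cadherin and protocadherin genes 13 (44.8%, with 24 that had gene-desert sequence) had 69 gene-desert peaks, but at 2.13 per Mb, below the 3.74 over all genes. After CDH11 these were CDH9 with 9, CDH2 and PCDH10 with 8 each and PCDH9 with 6. Of 71 genes of the liver fibrosis matrisome 9 (12.7%, with 16 that had gene-desert sequence) had 35 peaks at 12.8 per Mb. TNC, the gene of tenascin C, had 12, the collagen genes COL4A1 and COL6A3 and the fibronectin gene FN1 had 4 each, and COL12A1 had 3. Of 61 liver fibrosis genes 13 (21.3%, with 17 that had gene-desert sequence) had 72 peaks at 8.93 per Mb. They were led by FLRT2, with SULF2, an extracellular sulfatase, at 9, COL8A1 at 7, and HAS2, a hyaluronan synthase, and PMP22, a myelin protein, at 5 each. Of 30 hepatocyte identity genes 1 (3.33%) was nearest to any, the transcription factor gene FOXA2 with 8. Only 4 of the 30 had gene-desert sequence, and the density over it was 8.80 per Mb.

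Gene-desert peaks were grouped when their summits followed each other within 50 kb. Overlapping peaks were not merged first, so a region with several summits counted more than once. Merging left 3050 gene-desert peaks, and the grouping was not repeated on these. The 3357 peaks formed 1640 groups, of which 901 were single peaks, and 2456 peaks (73.2%) were in clusters of 2 or more. There were 133 clusters of at least 5 peaks, and 13 of at least 10 with 166 peaks in all. Another TEAD4 summit of any kind lay within 10 kb of 48.6% of gene-desert peaks, beside 47.5% of the whole list and 47.3% of all other peaks (odds ratio 1.06, 0.980 to 1.14, adjusted exact p = 0.342). At 50 kb the direction turned, with an odds ratio of 0.898 (adjusted exact p = 0.0439).

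The largest cluster by count of unmerged peaks had 18 over 202 kb on chromosome 9 (chr9:78933012-79135045), between PSAT1, an enzyme of serine synthesis, and TLE4. Some of its summits lay close together, such as those 34.74 and 34.94 kb from the first. The 18 therefore counts summits rather than separate regions, and the order of cluster sizes was not checked with merged peaks. Its signal values ran from 13.9 to 321.0 with a median of 78.7, and 3 of the 18 held a TEAD motif and 5 an AP-1 motif. A second on this chromosome had 15 peaks over 232 kb between KLF4 and ACTL7B, an actin-like gene of the testis (chr9:108440193-108671909). It held the highest peak of the 5 largest clusters, 487.7. Another of 15 on chromosome 9 spanned 172 kb between TNC and PAPPA (chr9:115855943-116027643), with a TEAD motif in 4.

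The next had 14 peaks over 162 kb between MSRB3, a methionine sulfoxide reductase, and HMGA2, an architectural chromatin protein (chr12:65495395-65657164). It began 3.96 kb past the end of MSRB3 and held a RUNX motif in 6 peaks. A cluster of 13 peaks over 165 kb lay between DAB2, an endocytic adaptor, and TTC33 (chr5:40333211-40497881), with values of 34.7 to 241.1. Another of 13, between ZNF32 and the chemokine gene CXCL12 on chromosome 10, had a lower maximum of 196.8 and held no TEAD motif. The NYAP2 to IRS1 interval of 1001 kb held 2 clusters, of 12 and 11 peaks, with a TEAD motif in 1 and 5 of them. A cluster of 12 stood between RASGRP1 and THBS1, with a TEAD motif in 4.

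A pair of the 13 clusters with at least 10 peaks held the miRNA genes below, which were looked up after the clusters were known. How often other clusters or gene-desert sequence hold miRNA genes was not counted, so the pair cannot be called frequent or rare. One of 12 peaks over 140 kb lay between KLF14 and MKLN1 (chr7:130838943-130979412), within the lncRNA gene LINC-PINT, and held MIR29A and MIR29B1. Its strongest peak, 431.3, was 9.81 kb from MIR29B1 and had neither a TEAD nor an AP-1 motif, and 7 of the peaks were within 50 kb. The miR-29 family is known to repress collagen mRNAs and to limit fibrosis. The other, 11 peaks over 155 kb between DIPK2B and KRBOX4 (chrX:45697824-45853307), held MIR221 and MIR222. Its nearest peak to MIR222 was 11.3 kb away with a signal value of 62.6 and an AP-1 motif, and 6 were within 50 kb. These miRNAs are known to repress the cell cycle inhibitor CDKN1B. The mature sequences from RefSeq (GRCh38.p14) show that each pair shares a seed, bases 2 to 8, in capitals. The list says nothing of whether any of the 4 was transcribed.
hsa-miR-29a-3p: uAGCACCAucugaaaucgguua
hsa-miR-29b-3p: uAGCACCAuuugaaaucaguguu
hsa-miR-221-3p: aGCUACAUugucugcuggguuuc
hsa-miR-222-3p: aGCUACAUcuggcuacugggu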

How the data were processed

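TEAD4 ChIP-seq libraries of DMSO-treated LX-2 cells (3 ChIP, 2 input) had been mapped by the authors to hg38 with Chromap (MAPQ threshold 10) and passed through the ENCODE pipeline for the irreproducible discovery rate (IDR), which gave 1 list from replicates 1 and 3. The caller behind the TEAD4 list is not given in the sources used here. Per peak the deposited list holds a scaled IDR score (830 to 1000), a signal value, a −log10 q-value and the summit offset. The signal value was used as deposited by the authors, and no value per sample or depth was at hand, so intervals cover counting error only.

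Summits (start plus offset) were placed on GENCODE release 44, with every transcript start of a coding gene as a TSS. The mapping of peaks to flanking genes used gene bodies. Motif letters had to match exactly, on either strand, in the 201 bases centred on the summit and in windows 2000 bp to either side. Shares have Wilson intervals (95%), odds ratios Woolf intervals, and p-values are two-sided Fisher's exact tests, adjusted by Benjamini-Hochberg over 36 comparisons, unless a logistic model is named. Summit uniqueness was the count of the central 31 bases on both strands of hg38. Python 3.11.15, scipy 1.17.1 and statsmodels 0.14.6 were used, and the functions were tested on simulated data. Genes were named by 4 rules: the genes nearest to or flanking the 10 strongest and 5 farthest peaks, the 10 genes nearest to most peaks, the genes flanking the 5 largest clusters (ties broken by the strongest peak), and up to 5 genes of each list. Other clusters of at least 10 peaks and the miRNA genes were named after their values were seen. The rule of membership, lists and tests were chosen with earlier results of these data known. The 2 fibrosis lists came from the study's gene signatures, whose symbols all matched the annotation. Alternatives covered the peak set, the rule of membership, the motif window and letters, GC content, the flank and the linking distance.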

Additional observations from a re-analysis of the deposited data

How the results depend on the processing

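The higher motif shares of gene-desert peaks than of their flanks (TEAD, AP-1 and RUNX), the higher TEAD share above the median signal value and the higher RUNX share than in all other peaks passed with the same direction under every alternative run. The TEAD share beyond 300 kb was the lower under each of its alternatives and passed in none. Of 248 alternative values 195 kept direction and side of the threshold, 7 no longer passed, 7 newly passed, 37 turned direction, of which 1 passed, and 2 counts moved. The cause of these changes was not tested. No paired analysis was possible because each peak has a single value that joins replicates 1 and 3, where paired means by replicate. Pairing each peak with its own flanks needs no replicate values, but it was not done. The comparison of repeat shares was not run, since the genome sequence used here carries no repeat marks. Unknown depth and the lack of values per replicate limit every result. The restriction to unique summits, RUNX against flanks and the other motifs against intergenic and in-gene peaks were chosen after seeing the data.

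The number of gene-desert peaks was 1728 above the median signal value of the list and 1942 with a limit of 200 kb. For the TEAD motif, the odds ratio to all other peaks turned to 0.934 with a limit of 200 kb, 0.961 with a lncRNA margin of 10 kb, 0.965 within 50 bp, 0.939 with the short letters and 0.9999 with unique summits. To intergenic peaks it turned to 1.02 above the median signal value, 1.02 within 250 bp and 1.03 with GC content, and passed at 0.887 with the short letters. To in-gene peaks it turned to 1.02 with merged peaks, 1.18 at 200 kb, 1.03 with gene starts, 1.05 within 250 bp and 1.06 with the short letters.

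For AP-1, the odds ratio to all other peaks no longer passed at 1.10 above the median signal value, 1.11 with the highest IDR score, 1.07 at 200 kb and 1.07 with GC content. To intergenic peaks it turned to 0.948 at 200 kb. To in-gene peaks, from 0.998, it turned to 1.03 with merged peaks, 1.05 above the median signal value, 1.02 on autosomes, 1.07 at 50 kb, 1.02 with a lncRNA margin of 10 kb, 1.03 with gene starts, 1.01 within 50 bp and 1.02 within 250 bp.

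Against all other peaks, the E-box turned to 0.954 above the median signal value and 0.9998 within 250 bp. Forkhead turned to 0.876 above the median signal value, 0.971 with the highest IDR score, 0.994 within 50 bp and 0.877 with GC content. C/EBP no longer passed at 1.16 above the median signal value and 1.05 with GC content. The CTCF core passed at 0.732 with the highest IDR score, 0.772 with gene starts and 0.758 within 250 bp, and turned to 1.06 with GC content. The GC box no longer passed at 0.788 and the reversed TEAD letters turned to 0.950 with GC content.

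The share above the median signal value passed against all other peaks at 1.10 with merged peaks, 1.08 at 50 kb and 1.10 with gene starts. It turned to 1.00 against intergenic peaks with the highest IDR score and also with a lncRNA margin of 10 kb, and against in-gene peaks to 1.01, 1.03 and 1.08 with the highest IDR score, at 50 kb and with gene starts. Another summit within reach turned to 0.977 with merged peaks and to 0.898, which passed, at 50 kb.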

Other observations

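LncRNA genes held series of gene-desert peaks. The most were 24 in the lncRNA gene ENSG00000259345 and 18 in LINC02694, both on chromosome 15 and both beside THBS1, with a strongest signal value of 242.6 in each, since the 2 genes overlap and share peaks. Among the others, MIR3681HG held 16 (median signal value 79.1, a TEAD motif in 1), LINC00882 held 14 (median 71.2, a TEAD motif in 4), MSRB3-AS1 held 13 (a TEAD motif in 1), and LINC-PINT and DIRC3 held 12 each. These are examples, and further lncRNA genes with 12 to 15 peaks are not named. All counts are of unmerged peaks. The named genes were chosen after their values were seen, and the list does not say whether any of them was transcribed in LX-2 cells.

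The 901 single peaks had a median signal value of 67.1, a TEAD motif in 26.9% (24.1 to 29.8) and an AP-1 motif in 31.3% (28.4 to 34.4). The 908 peaks in clusters of at least 5 had a median of 71.7, with shares of 21.8% (19.2 to 24.6) and 24.2% (21.5 to 27.1). RUNX shares were 13.2% and 11.7%. This split used unmerged peaks, was made after the clusters were seen and was not tested.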
